A study of Mus musculus with 21 samples.

Results

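The 9 genes described here encode the type I interferon receptor chains IFNAR1 and IFNAR2, the receptor-bound kinases JAK1 and TYK2, the transcription factor subunits STAT2 and IRF9, and the interferon regulatory factors IRF1, IRF3 and IRF7. They were taken by gene symbol from a table of 55573 genes, and all 9 were found and passed the filter on low counts that left 15432 genes. RNA was sequenced from 21 libraries of mouse E0771 breast cancer cells carrying GFP, 3 in each of 7 groups. The parental group is the E0771GFP line labelled with no treatment, and the empty vector group is that line with an empty vector. The ZBTB18 group overexpresses ZBTB18, a zinc finger repressor of transcription. A pair of groups carries ZBTB18 together with a doxycycline-inducible TGFBR2, the TGF-β receptor subunit; both received doxycycline (1 mg/mL as labelled), 1 with vehicle (the vehicle group) and 1 with TGF-β1 at 2 ng/mL (the TGF-β1 group). M11 and M12 are the lines M11GFP and M12GFP, which were derived from spontaneous lung metastases of E0771GFP and are labelled with no treatment. All 7 groups share the E0771GFP background. The treatment text is the same for every sample, and the sample labels give doxycycline for the receptor groups alone. The labels do not say whether a line is 1 clone or whether the 3 libraries of a group were separate cultures, so p-values measure the spread between these libraries, which may be technical.

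Type I interferon binds a receptor made of IFNAR1 and IFNAR2, which activates TYK2 and JAK1; these phosphorylate STAT proteins, and STAT2 and IRF9 then act within ISGF3, the complex that switches on interferon-stimulated genes by binding a DNA element named ISRE. IRF3 is present in most resting cells and, once phosphorylated downstream of nucleic acid sensors, starts transcription of the interferon-β gene, while IRF7 is itself induced by interferon and amplifies the response. IRF1 is induced by interferons, through a DNA element named GAS, and through NF-κB.

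Upstream sequence is shown for 4 of these genes because their RNA followed different patterns: Stat2 and Irf7 varied widely between groups and were highest in the parental line, Ifnar1 varied little, and Irf1 was highest in another group. The sequences are RefSeq promoter windows on build GRCm38.p6, 5′ to 3′, cut to the 250 bases before the annotated start and, for Irf7, to the 193 of these that lie outside annotated exons. Capitals mark an ISRE-type match (GAAA, any 2 bases, GAAA, on either strand) or a GAS-type match (TTCNNNGAA, which reads the same on both strands).
Stat2 (chr10:128270248-128270497, plus strand): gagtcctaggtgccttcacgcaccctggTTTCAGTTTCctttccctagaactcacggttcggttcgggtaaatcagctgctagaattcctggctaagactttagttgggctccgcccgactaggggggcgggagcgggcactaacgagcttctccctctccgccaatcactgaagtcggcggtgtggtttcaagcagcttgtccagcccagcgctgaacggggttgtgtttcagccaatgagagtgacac
Irf7 (chr7:141266482-141266674, minus strand): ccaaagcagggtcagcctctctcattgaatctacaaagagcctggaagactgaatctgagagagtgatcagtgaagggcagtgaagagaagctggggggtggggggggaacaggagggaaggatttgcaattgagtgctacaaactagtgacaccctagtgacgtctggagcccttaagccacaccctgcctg
Irf1 (chr11:53769764-53770013, plus strand): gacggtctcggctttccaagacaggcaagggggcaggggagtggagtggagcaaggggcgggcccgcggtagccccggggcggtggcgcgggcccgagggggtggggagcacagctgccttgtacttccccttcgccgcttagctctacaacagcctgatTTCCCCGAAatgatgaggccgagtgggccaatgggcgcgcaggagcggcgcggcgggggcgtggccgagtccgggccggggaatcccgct
Ifnar1 (chr16:91484965-91485214, plus strand): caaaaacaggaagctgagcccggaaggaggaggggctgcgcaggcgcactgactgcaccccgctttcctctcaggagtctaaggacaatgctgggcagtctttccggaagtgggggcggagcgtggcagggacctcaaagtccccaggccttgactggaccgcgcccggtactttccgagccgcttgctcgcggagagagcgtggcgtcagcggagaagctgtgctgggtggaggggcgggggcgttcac
The ISRE-type letters began 222 bases before the Stat2 start and the GAS-type letters 90 bases before the Irf1 start. Of 32851 windows of the same 250 bases in the RefSeq table, 2.98% held the ISRE-type letters and 7.02% the GAS-type letters. Windows were listed for all 9 genes, with 2 each for Irf9 and Irf1, and the ISRE-type letters occurred in those of Stat2 alone. Both Irf9 windows (from 55603735 and 55604329) lie after the GENCODE vM21 start of Irf9 (55603571). Bases before that start were not searched. The GAS-type letters occurred in the first Irf1 window and in that of Ifnar2. A match describes letters and does not show binding, and the starts used in these cells were not measured.

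The libraries held between 24208569 and 90518872 counts, and even the lowest member value, Irf7 in M12 replicate 3, rested on 21 reads. Levels are CPM, the usual per-library scaling of read counts, with TMM factors from edgeR. Parental replicate 1 stood apart: 14.0% of its counts fell on Gm42418, a ribosomal RNA-like gene that took at most 0.0918% in any other library. Leaving Gm42418 out changed the call for 0 of 90 member values. The mitochondrial share was 1.80 to 3.42% in the M11, M12 and parental groups and 0.525 to 1.09% in the others; its part in the results was not tested. Of the markers for the labelled breast cancer cells, Krt8 stood at 154 to 342 CPM in the group means, but the epithelial genes Epcam (0.222 to 3.22), Krt18 (at most 3.01) and Krt7 (at most 0.722) were low and Cdh1 and Krt19 lay below the filter. Vim, a mesenchymal gene, stood at 2409 to 5174 CPM. Fewer cells that express a gene and less RNA per cell cannot be told apart in bulk RNA.

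Against the parental line, the members fell into groups that moved in different directions. Stat2, Irf9 and Irf7 had their highest mean in the parental line and were lower than parental in each of the 6 other groups, by 0.80 to 4.68 on the log2 scale. Jak1 was higher than parental in each of the 6 groups, Ifnar1 in 5 and Tyk2 in 4, by 0.22 to 0.69, and all 3 had their lowest mean in the parental line. Ifnar2 passed the test in 0 of these 6 comparisons with the parental line (its unadjusted p lay under 0.05 in 3 of them, DESeq2 called it in 2 and limma-voom in 1). Irf3 was lower than parental in 5 of 6 and Irf1 in 1 of 6. All 6 comparisons share the 3 parental libraries. On the TPM scale the median gene moved up by 0.20 to 0.34 (log2) against the parental line relative to the CPM scale. There Ifnar2 turned to 0.00 or above in the vehicle, TGF-β1, M11 and M12 groups, Irf3 turned up in M11, and Irf1 turned up in the empty vector line and M12, none of them past the threshold; the directions of the other members against the parental line held.

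Counted by comparison, 7 of the 9 genes differed between the empty vector and parental lines, where 58% of all tested genes did; 3 were higher (28.9% of all genes) and 4 lower (29%). For the ZBTB18 line the count was 8 of 9, against 61.7% of all genes, with 3 higher (29.9%) and 5 lower (31.8%). With vehicle it was 7 of 9 (62.9% of all genes), with 3 higher (30.6%) and 4 lower (32.3%). With TGF-β1 it was also 7 of 9 (62.7%), with 3 higher (30.2%) and 4 lower (32.5%). M11 differed from the parental line in 4 of 9, beside 40.7% of all genes, with 1 higher (20.8%) and 3 lower (20%). M12 differed in 6 of 9, beside 50.1%, with 2 higher (24.9%) and 4 lower (25.2%). With so many genes called in every comparison, these shares do not set the 9 genes apart, and the sizes and directions carry what follows. A further setting, without parental replicates 1 and 2, was chosen after seeing the data. In it the lone parental library is assumed to vary like the other groups, so its calls are not counted here. For ZBTB18 against parental, Irf1 was then at -0.55 and Ifnar2 at 0.35.

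**Figure D1:**
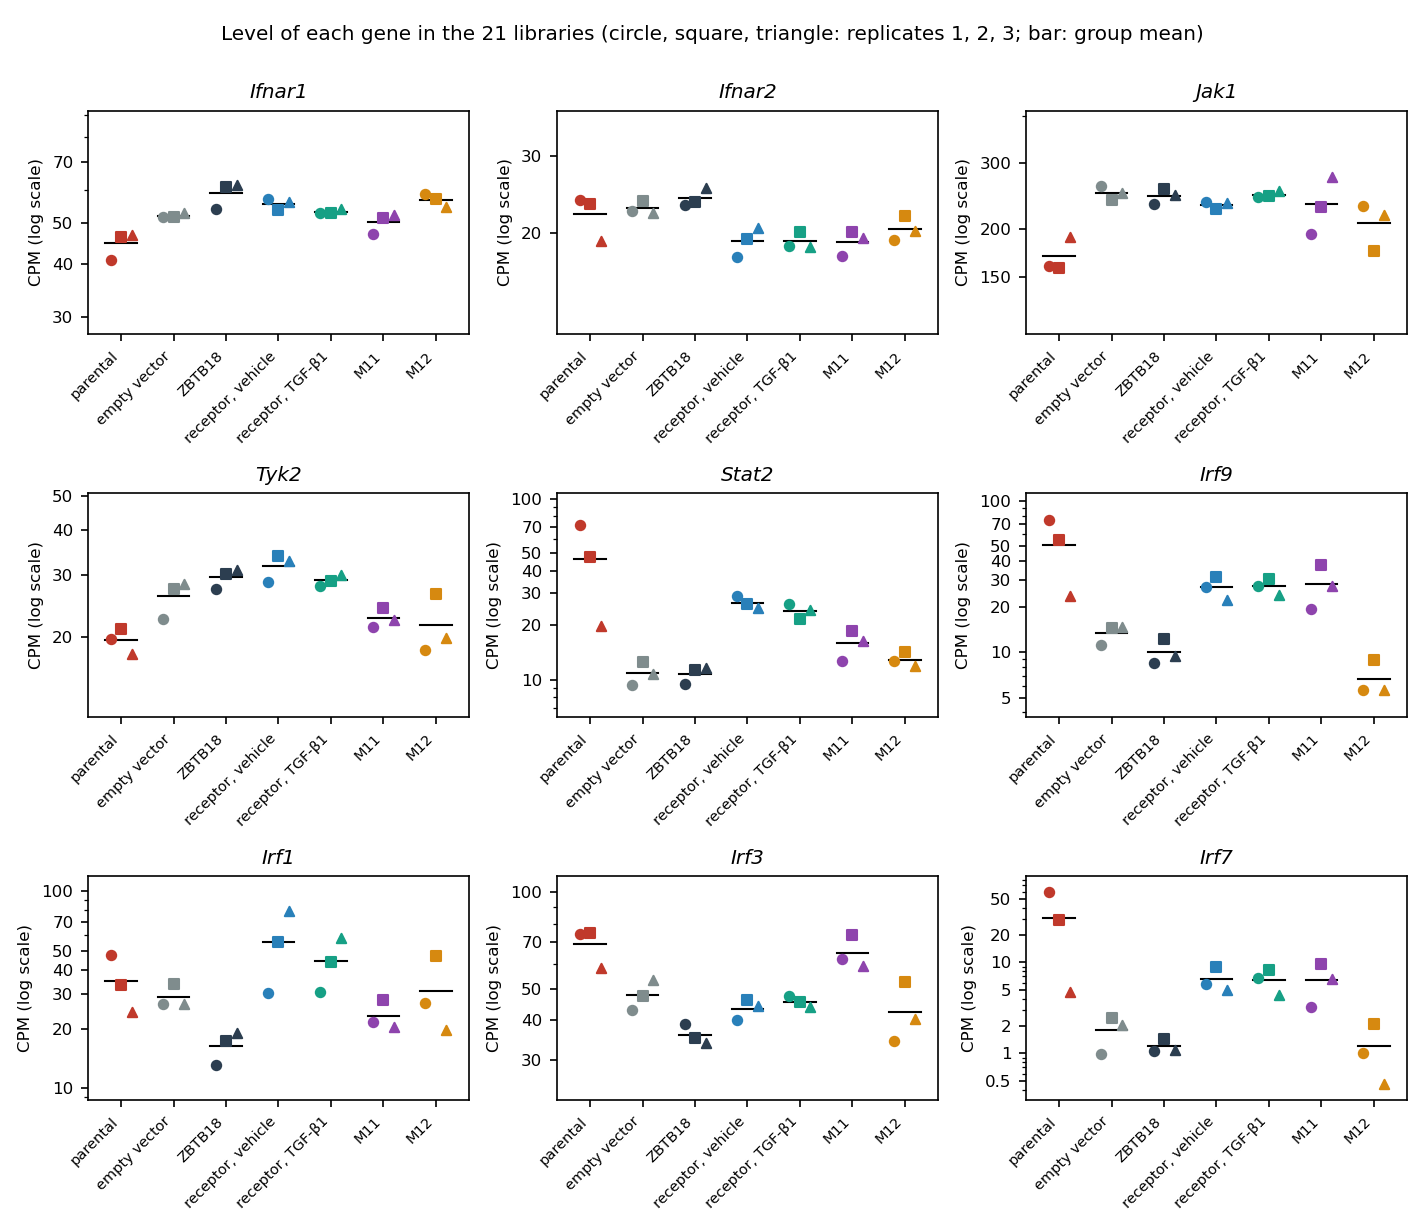
CPM of each gene (log axis, with a range of its own in each panel) in all 21 libraries, by group; circles, squares and triangles are replicates 1, 2 and 3 and bars are group means. Stat2, Irf9 and Irf7 are high in parental replicates 1 and 2 and lower in replicate 3, while Ifnar1, Jak1 and Tyk2 have their lowest group mean in the parental line.

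Ifnar1 (ENSMUSG00000022967.13, chromosome 16, 91485238 to 91507441 on mm10) encodes the low-affinity receptor chain. It read 41.0, 46.4 and 47.0 CPM in parental replicates 1, 2 and 3, and its 18 other libraries lay between 47.3 and 61.6 CPM. The parental libraries were thus below every other library. Group means ran from 44.8 ± 3.3 (SD, n = 3) in the parental line to 58.9 ± 4.3 in the ZBTB18 line, a span of 1.31-fold. Relative to parental the log2 fold change was 0.39 (SE 0.07, adjusted p = 8.17e-05) for ZBTB18 and 0.34 (adjusted p = 0.000461) for M12. For M11 it was 0.17 and did not pass (adjusted p = 0.0692), although the M11 and parental libraries did not overlap. In the order ZBTB18, M12, vehicle, TGF-β1, empty vector, M11, parental, neighbours overlapped except for M11 and parental. The empty vector call (0.22) was lost without parental replicate 1 (0.17, adjusted p = 0.0636), with the 6 libraries alone (adjusted p = 0.106) and without parental replicates 1 and 2 (0.17, adjusted p = 0.212). That last setting also lost the TGF-β1 call (0.20, adjusted p = 0.115). The M11 difference passed without parental replicate 3 (0.20, adjusted p = 0.0435) or M11 replicate 1 (0.21, adjusted p = 0.0384), and on the log2(TPM + 1) scale (0.36, adjusted p = 0.0161).

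Ifnar2 (ENSMUSG00000022971.18, chromosome 16, 91372783 to 91405589) encodes the high-affinity chain, and its gene lies near Ifnar1. It read 23.8, 23.3 and 19.2 CPM in the parental line, so parental replicate 3, the library lowest in Irf7, Stat2 and Irf9 among the 3, was also lowest here. Its group means spanned 19.2 to 24.1 CPM, or 1.26-fold, the narrowest range of the 9 genes, and every pair of neighbouring groups overlapped. The vehicle and TGF-β1 groups each lay at -0.21 relative to parental (adjusted p = 0.0603 and 0.0597). Without parental replicate 3 both passed, at -0.29 each (adjusted p = 0.00891 and 0.00874), as did M11 at -0.30 (adjusted p = 0.0124); the vehicle value also passed without vehicle replicate 3 (-0.25, adjusted p = 0.0466). On the log2(TPM + 1) scale the same 3 differences were 0.09, 0.09 and 0.00, and the ZBTB18 line passed at 0.39 (adjusted p = 0.00259).

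Jak1 (ENSMUSG00000028530.14, chromosome 4, 101152367 to 101265282) encodes the kinase bound to IFNAR2, which also serves many cytokine receptors. It read 160, 158 and 191 CPM in the parental line and 176 to 275 CPM in the other 18 libraries. Parental replicates 1 and 2 were below all of those, and replicate 3 was above M12 replicate 2 alone. Its mean was 170 ± 19 CPM in the parental line and 250 ± 10 in the empty vector line, a log2 fold change of 0.56 (SE 0.11, adjusted p = 0.000207). The smallest difference was that of M12, 0.30 (adjusted p = 0.0277). The M12 call was lost without parental replicate 1 (0.25, adjusted p = 0.105), parental replicate 2 (0.23, adjusted p = 0.132), M12 replicate 1 (0.22, adjusted p = 0.138) or M12 replicate 3 (0.24, adjusted p = 0.106), and with the 6 libraries alone (adjusted p = 0.115). Without parental replicates 1 and 2 the vehicle (0.29, adjusted p = 0.12), M11 (0.27, adjusted p = 0.201) and M12 (0.11, adjusted p = 0.608) calls were lost. Every pair of neighbouring groups overlapped.

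Tyk2 (ENSMUSG00000032175.11, chromosome 9, 21104068 to 21131243) encodes the kinase bound to IFNAR1. It read 19.8, 21.2 and 17.9 CPM in the parental line, against 28.7, 33.9 and 32.9 CPM in the vehicle libraries, with no overlap. That difference, 0.69 (SE 0.12, adjusted p = 3.24e-05), was the largest among the receptor and kinase genes. The ZBTB18 and TGF-β1 groups were higher than parental by 0.59 and 0.56 and the empty vector line by 0.41 (adjusted p = 0.00608). The metastasis lines did not pass: 0.21 for M11 (adjusted p = 0.18) and 0.14 for M12 (adjusted p = 0.342). On the log2(TPM + 1) scale both passed, at 0.39 (adjusted p = 0.0292) and 0.38 (adjusted p = 0.028). Every pair of neighbouring groups in the order of levels overlapped.

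Stat2 (ENSMUSG00000040033.16, chromosome 10, 128270559 to 128292849) encodes the STAT used chiefly in type I and III interferon signalling, and its window carries the ISRE-type letters shown above. It read 71.3, 47.9 and 19.8 CPM in the parental line, 9.33, 12.5 and 10.7 in the empty vector line and 9.47, 11.2 and 11.6 in the ZBTB18 line. The vehicle libraries read 28.9, 26.2 and 24.8 CPM and the TGF-β1 libraries 26.3, 21.8 and 24.3 CPM. Parental replicates 1 and 2 were above every other library, but replicate 3 was below all 6 libraries of the vehicle and TGF-β1 groups. Relative to parental, Stat2 fell by 2.10 in the empty vector line (SE 0.30, adjusted p = 1.71e-05) and by 2.11 in the ZBTB18 line, and both remained past the threshold without parental replicates 1 and 2 (-0.86 each, adjusted p = 0.00175 and 0.000881). M11 (12.8, 18.5 and 16.3 CPM) and M12 (12.7, 14.2 and 11.9 CPM) fell by 1.55 and 1.84. Without parental replicates 1 and 2 the M11 call was lost (-0.33, adjusted p = 0.213) and the M12 difference was -0.63 (adjusted p = 0.0108); the M11 call was also lost with the 6 libraries alone (adjusted p = 0.0535). The vehicle difference, -0.80 (adjusted p = 0.02), was lost without parental replicate 1 (-0.34, adjusted p = 0.221), vehicle replicate 2 (adjusted p = 0.0533) or vehicle replicate 3 (adjusted p = 0.0631). On the log2(TPM + 1) scale (-0.46, adjusted p = 0.0755) and in limma-voom (-0.62, adjusted p = 0.0734) it was lost too. The TGF-β1 difference, -0.94 (adjusted p = 0.00787), was lost without parental replicate 1 (-0.48, adjusted p = 0.09). Both were lost with the 6 libraries alone (adjusted p = 0.184 and 0.108) and turned positive without parental replicates 1 and 2 (0.43 and 0.30, neither past the threshold).

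Irf9 (ENSMUSG00000002325.15, chromosome 14, 55603571 to 55610030) encodes the DNA-binding subunit of ISGF3. It read 74.7, 54.7 and 23.3 CPM in the parental line and 5.62, 8.81 and 5.58 CPM in M12, the lowest group. M11 read 19.3, 37.6 and 27.4 CPM, the vehicle group 26.9, 31.6 and 22.02 CPM and the TGF-β1 group 27.4, 30.6 and 23.97 CPM. These 3 groups overlapped each other, and parental replicate 3 lay within the range of M11 and vehicle and just below that of TGF-β1. The empty vector (11.1 to 14.7 CPM), ZBTB18 (8.52 to 12.2 CPM) and M12 libraries lay wholly below them. Relative to parental, Irf9 fell by 2.93 in M12 (SE 0.35, adjusted p = 3.75e-06), by 2.34 in the ZBTB18 line and by 1.93 in the empty vector line (adjusted p = 0.000155). Without parental replicates 1 and 2 these were -1.81, -1.19 and -0.79, and the empty vector call was lost (adjusted p = 0.0697).

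The smaller Irf9 differences of the vehicle group (-0.92, adjusted p = 0.0204), the TGF-β1 group (-0.90, adjusted p = 0.0233) and M11 (-0.86, adjusted p = 0.0444) were also lost without single libraries. The vehicle call was lost without parental replicate 1 (-0.53, adjusted p = 0.153), parental replicate 2 (adjusted p = 0.0509), vehicle replicate 1 (adjusted p = 0.0505) or vehicle replicate 3 (adjusted p = 0.079). The TGF-β1 call was lost without parental replicate 1 (-0.50, adjusted p = 0.178), parental replicate 2 (adjusted p = 0.0561), TGF-β1 replicate 1 (adjusted p = 0.0577) or TGF-β1 replicate 3 (adjusted p = 0.0793). The M11 call was lost without parental replicate 1 (-0.48, adjusted p = 0.257), parental replicate 2 (adjusted p = 0.103), M11 replicate 1 (adjusted p = 0.167) or M11 replicate 3 (adjusted p = 0.105). In limma-voom it was lost with all libraries (-0.79, adjusted p = 0.075). On the log2(TPM + 1) scale the 3 differences were -0.45, -0.42 and -0.62, with adjusted p of 0.172, 0.2 and 0.0869. With the 6 libraries alone the adjusted p were 0.12, 0.0925 and 0.226, and without parental replicates 1 and 2 all 3 differences turned positive (0.21, 0.24 and 0.25, none past the threshold). Irf9 overlaps Rnf31 on the same strand in GENCODE vM21; Rnf31 averaged 29.6 CPM in parental libraries and 20.2 to 27.8 CPM in the other group means, and how reads were shared between them was not tested.

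Irf7 (ENSMUSG00000025498.15, chromosome 7, 141262706 to 141266481 on the minus strand), the interferon-induced amplifier of interferon transcription, had the widest range. It read 59.0, 29.0 and 4.69 CPM in the parental line, 0.978, 2.43 and 2.06 CPM in the empty vector line, 1.06, 1.45 and 1.09 CPM in the ZBTB18 line and 1.01, 2.13 and 0.463 CPM in M12. The vehicle (5.78, 8.94 and 4.93 CPM), TGF-β1 (6.79, 8.18 and 4.42 CPM) and M11 (3.23, 9.52 and 6.59 CPM) libraries formed a middle tier. Parental replicate 3 lay inside that middle tier, while replicates 1 and 2 were above every library of the other groups. Replicate 2 was the highest Irf7 library in each of the 6 groups other than parental. The group means spanned 25.8-fold and the libraries 127-fold.

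Relative to parental, Irf7 fell by 4.68 in the ZBTB18 line (SE 0.78, adjusted p = 0.000104), by 4.67 in M12 and by 4.14 in the empty vector line. Without parental replicate 1 these became -3.79, -3.80 and -3.25 and still passed. Without replicates 1 and 2 they were -1.94 (adjusted p = 0.0286), -1.96 (adjusted p = 0.0311) and -1.39 (adjusted p = 0.125). The middle tier fell by 2.24 to 2.27, which did not pass without parental replicate 1: -1.36 for the vehicle group (adjusted p = 0.0738), -1.38 for TGF-β1 (adjusted p = 0.0719) and -1.41 for M11 (adjusted p = 0.102). The M11 call was also lost without M11 replicate 1 (-1.93, adjusted p = 0.0632) and in limma-voom (-1.86, adjusted p = 0.08). On the log2(TPM + 1) scale, which understates changes of low genes, the vehicle and TGF-β1 differences were -1.20 (adjusted p = 0.0647) and -1.23 (adjusted p = 0.0597); the M11 call was lost with a pseudocount of 0.1 (-1.63, adjusted p = 0.0595). With the 6 libraries alone the vehicle, TGF-β1 and M11 calls were lost (adjusted p = 0.111, 0.086 and 0.184), and without parental replicates 1 and 2 the differences were 0.49, 0.48 and 0.44, none past the threshold. Phrf1, which overlaps Irf7 on the opposite strand, averaged 79.4 CPM in parental libraries and 75.4 to 111 CPM in the other groups. The library kit marks strand, but the strand setting of the counting is not given in the sources used here.

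**Figure D2:**
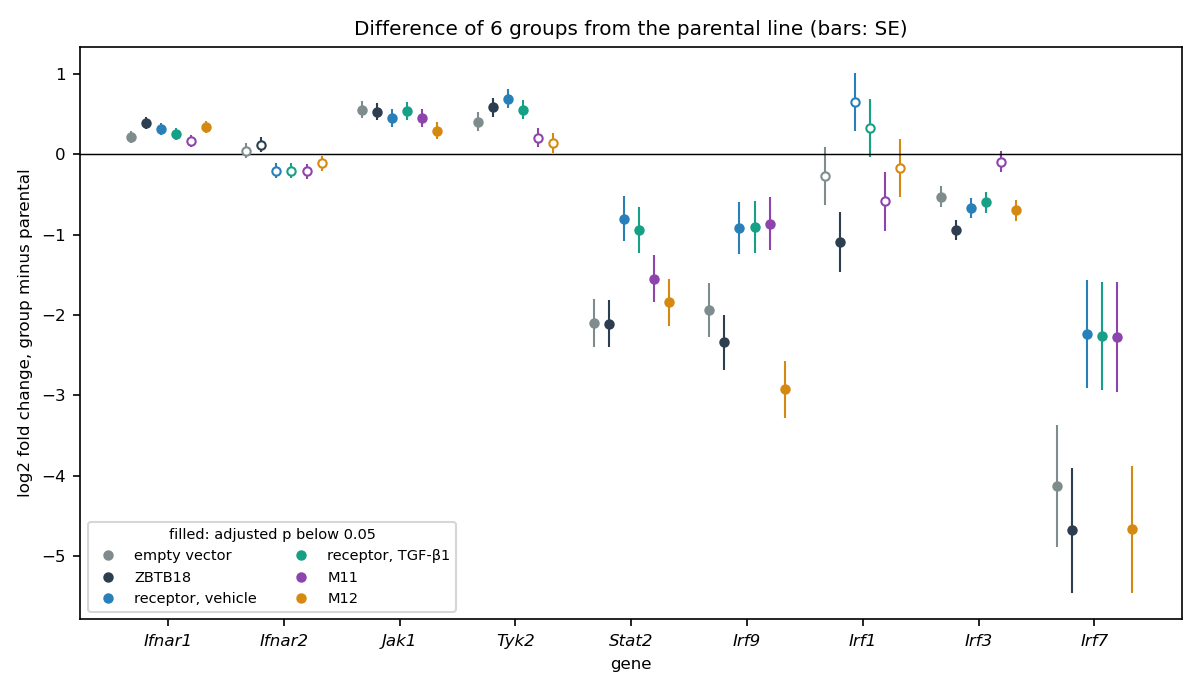
Log2 fold change of each gene in 6 groups relative to the parental line (y axis), with bars for 1 SE and filled points for an adjusted p below 0.05; all 6 comparisons share the parental libraries. Ifnar1, Jak1 and Tyk2 lie above 0 in every group, and Stat2, Irf9 and Irf7 below 0, down to -4.68 for Irf7 in the ZBTB18 line.

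Irf3 (ENSMUSG00000003184.15, chromosome 7, 44997648 to 45002848), the constitutive factor behind the first wave of interferon-β, read 74.0, 74.9 and 58.0 CPM in the parental line and 61.8, 73.7 and 59.1 CPM in M11. These 6 libraries were above the 15 others, which lay between 33.8 and 53.4 CPM. Irf3 fell by 0.94 relative to parental in the ZBTB18 line (SE 0.13, adjusted p = 2.87e-06) and by 0.53 to 0.70 in the empty vector, vehicle, TGF-β1 and M12 groups. M11 did not pass (-0.09, adjusted p = 0.615). Which of the 2 was higher depended on the scale, since M11 had the higher mean in TPM (84.2 against 76.8). Bcl2l12, on the opposite strand over part of Irf3, averaged 14.6 CPM in the parental line and at most 15.6 CPM elsewhere. Without parental replicates 1 and 2, the empty vector (-0.26, adjusted p = 0.278), vehicle (-0.41, adjusted p = 0.0536) and TGF-β1 (-0.33, adjusted p = 0.121) calls were lost, while ZBTB18 and M12 still passed.

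Irf1 (ENSMUSG00000018899.16, chromosome 11, 53770014 to 53778374), whose window holds the GAS-type letters, did not follow Stat2, Irf9 and Irf7. Its highest mean was in the vehicle group (30.5, 55.5 and 79.7 CPM), followed by the TGF-β1 group (30.9, 43.5 and 58.2 CPM) and the parental line (47.4, 33.3 and 24.4 CPM). The lowest was the ZBTB18 line (13.04, 17.2 and 19.0 CPM), below every library of the other 6 groups. Libraries of 1 group differed widely, so that only the ZBTB18 line passed against parental, where Irf1 fell by 1.09 (SE 0.37, adjusted p = 0.0179). That call was lost without parental replicate 1 (-0.80, adjusted p = 0.0987) or ZBTB18 replicate 1 (-0.95, adjusted p = 0.0686), and on the log2(TPM + 1) scale (-0.63, adjusted p = 0.0849). The vehicle difference of 0.65 (adjusted p = 0.127) passed without vehicle replicate 1 (0.95, adjusted p = 0.0268) and on the log2(TPM + 1) scale (0.88, adjusted p = 0.0182). Same-numbered vehicle and TGF-β1 libraries ranked alike in Irf1, lowest in replicate 1 and highest in replicate 3.

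Among the 9 genes, the 3 parental libraries differed from each other most in Irf7, Stat2 and Irf9. The SD of log2 CPM over them was 1.88 for Irf7, larger than for 99.6% of tested genes, 0.94 for Stat2 (97.4%) and 0.87 for Irf9 (96.7%), against a median of 0.20 over all tested genes. It was 0.11 for Ifnar1, 0.12 for Tyk2, 0.15 for Jak1, 0.17 for Ifnar2 and 0.21 for Irf3. Parental replicate 1 exceeded replicate 3 by 3.64 on the log2 scale in Irf7, 1.84 in Stat2 and 1.68 in Irf9. In Ifnar1 and Jak1 replicate 1 was the lower of that pair, by -0.20 and -0.26. Across groups, Stat2, Irf9 and Irf7, and on a much smaller scale Ifnar1 and Ifnar2, each had a larger SD in the parental line than in any of the 6 others. The median SD of all tested genes was also largest there (0.20, followed by 0.19 in M12), and the parental SDs of Ifnar1 and Ifnar2 lay below it. Irf1 was more variable in the vehicle group (0.70) and in M12 (0.63) than in the parental line (0.48).

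**Figure D3:**
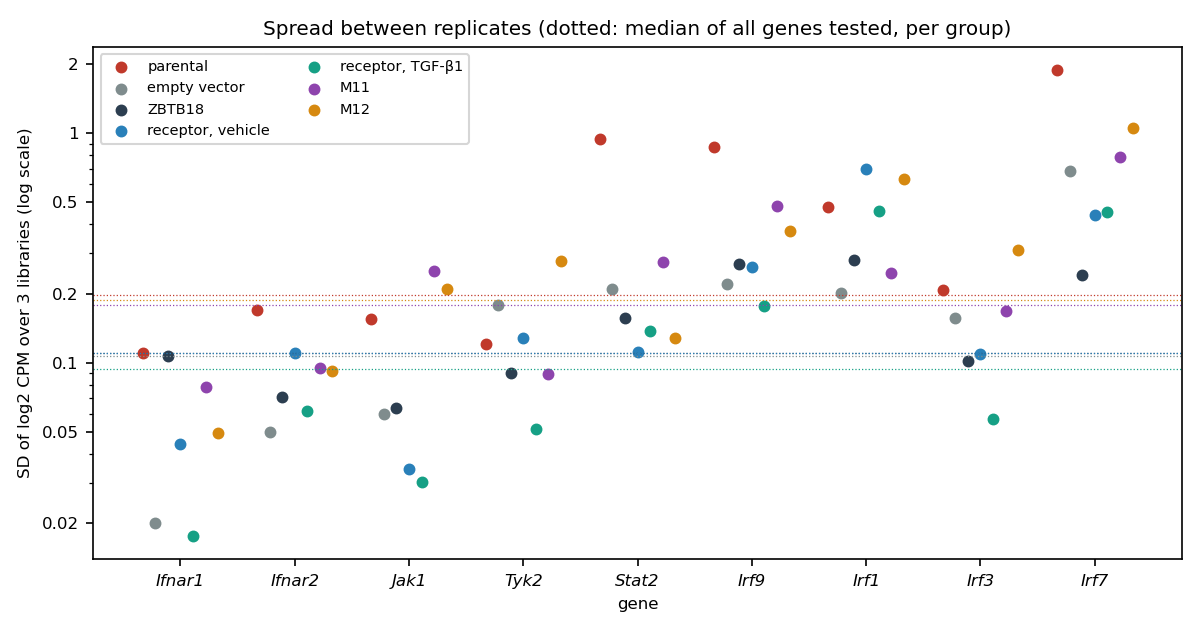
SD of log2 CPM over the 3 libraries of each group (log axis) for the 9 genes, with dotted lines for the median SD of all tested genes in each group. The parental points for Irf7 (1.88), Stat2 (0.94) and Irf9 (0.87) are the highest of their genes, while those of the receptor and kinase genes lie below the parental median of 0.20.

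The interferon state itself was read from 40 interferon-stimulated genes, a list that holds none of the 9. Their mean log2 CPM was 5.36, 4.64 and 3.29 in parental replicates 1, 2 and 3, the 3 highest of the 21 libraries. M11 replicate 2 followed at 3.28, and the lowest was M12 replicate 3 at 0.65. Of the 40 genes, 36 were above every non-parental library in parental replicate 1, 31 in replicate 2 and 8 in replicate 3. Against parental, 37 of 40 were lower in the empty vector line, where 29% of all genes were, and 38 in the ZBTB18 line (31.8% of all genes). The counts were 29 with vehicle (32.3%), 29 with TGF-β1 (32.5%), 33 in M11 (20%) and 36 in M12 (25.2%). The list's median log2 difference lay between -1.92 (M11) and -3.72 (ZBTB18), with that of all tested genes between -0.03 and 0.00. These counts rest on the same parental libraries as those of the 9 genes. Both the list and the 9 genes were chosen with earlier results of these data known. The counts are thus a description and not an independent test.

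Set side by side per library, parental replicates 1 and 2, the libraries with the highest list mean, were also the highest in Stat2, Irf9, Irf3 and Irf7 and the lowest in Ifnar1 and Jak1. For Irf3 this held on CPM alone, where M11 replicate 2 came close (73.7 against 74.0); in TPM parental replicate 1 (68.9) lay below all 3 M11 libraries (81.2 to 89.6). Parental replicate 3 followed these in list mean but was above all non-parental libraries in 0 of the 9 genes and below them all in Ifnar1 and Tyk2. In the vehicle and TGF-β1 groups, whose list means lay between 2.39 and 2.72, Stat2 was 21.8 to 28.9 CPM, above all M11 libraries (at most 18.5 CPM) although M11 list means reached 3.28. Whether the level of any of these genes sets the interferon state of the parental libraries was not tested, and RNA levels do not measure phosphorylation or receptor protein.

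**Figure D4:**
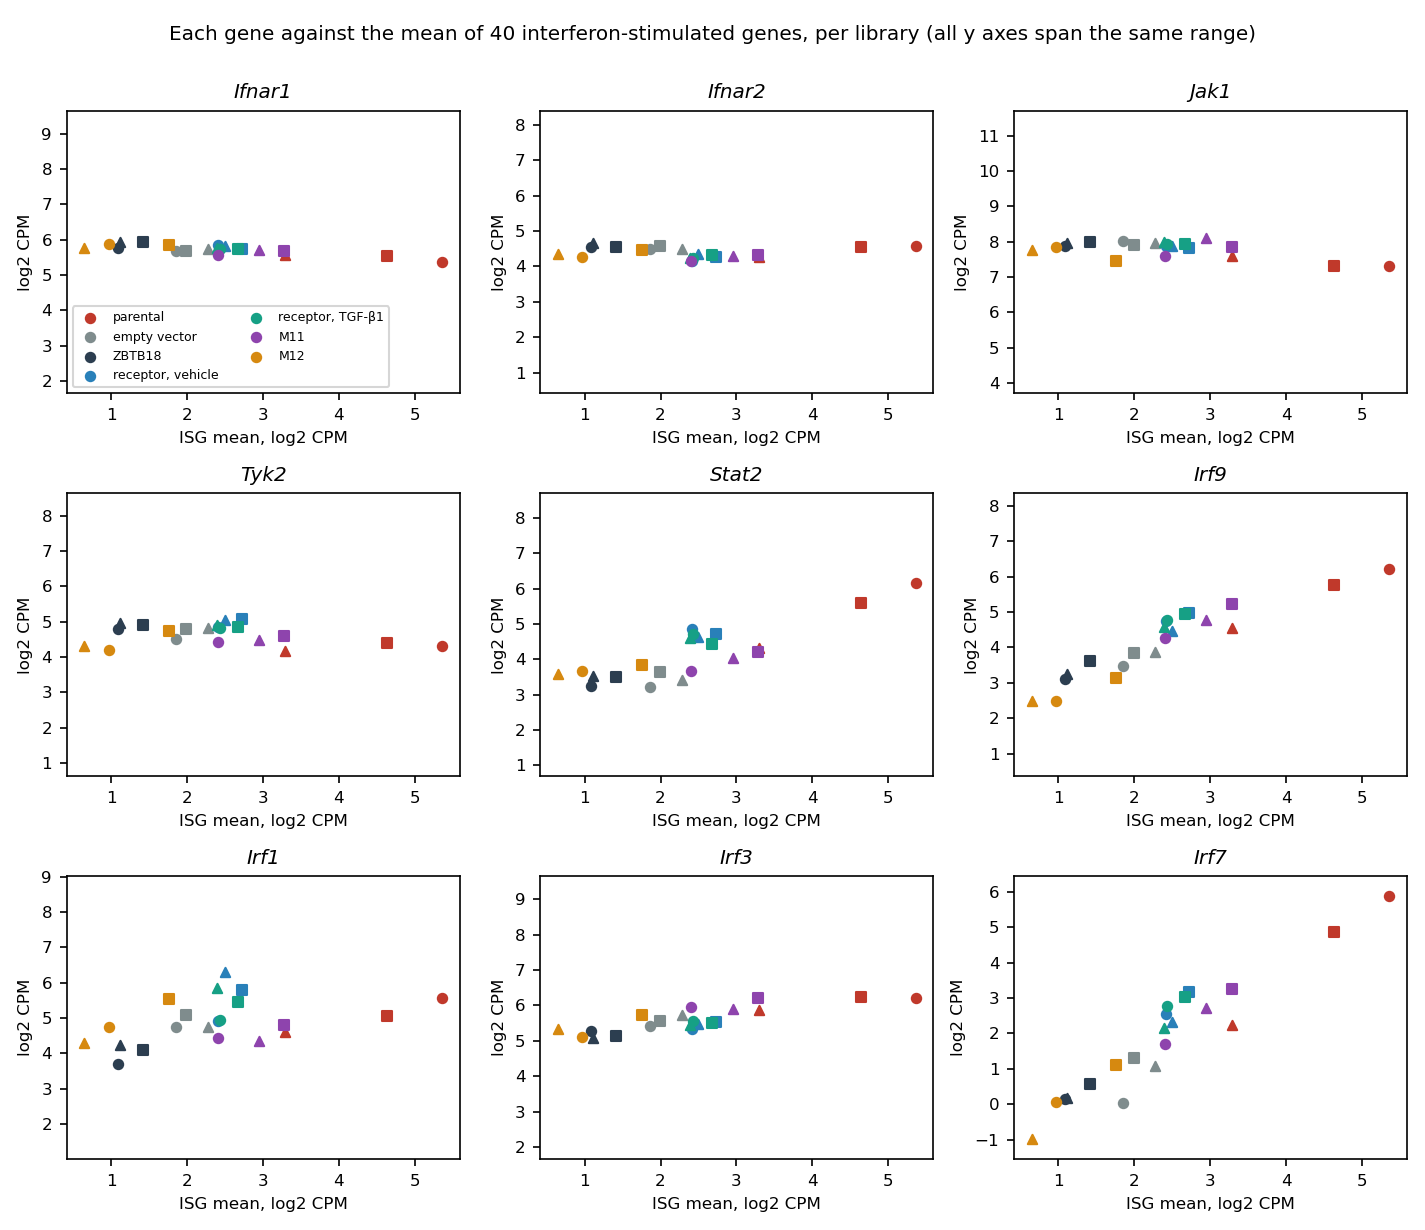
Log2 CPM of each gene (y axis, the same span in every panel) against the mean log2 CPM of 40 interferon-stimulated genes (x axis) in 21 libraries, coloured by group with replicates as circles, squares and triangles. Ifnar1, Ifnar2, Jak1 and Tyk2 stay within a narrow band from 0.65 to 5.36 on the x axis, while Irf7 and Irf9 are highest at parental replicates 1 and 2 on the right.

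Levels of different genes were compared in TPM, which RSEM scales by transcript length. Jak1 and Irf3 were the 2 most abundant of the 9 in every group: Jak1 had 42.5 TPM and Irf3 76.8 TPM in the parental line, and 77.0 and 45.1 TPM in the ZBTB18 line. Irf7 was the least abundant in all 6 groups other than parental, from 1.05 TPM in M12 to 6.01 TPM with vehicle, and ranked sixth in the parental line at 20.3 TPM. Irf9 was at rank 3 in the parental line, at 26.3 TPM, and at ranks 6 to 8 in the other groups. Tyk2 was the least abundant in the parental line at 5.27 TPM. Both receptor chains were within a factor of 2 of each other in every group, for example 14.0 TPM for Ifnar1 and 22.5 TPM for Ifnar2 in the parental line.

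Among ligands, Ifnb1 (interferon-β) had 51, 29 and 3 reads in parental replicates 1, 2 and 3, or 1.44, 0.661 and 0.0852 CPM. The 18 other libraries had at most 6 reads each and 28 in all, with 0 in 7 of them. The parental order of Ifnb1 was thus that of Irf7, Stat2 and Irf9, on counts too low for the filter and therefore not tested. Of 21 ligand genes listed, 14 had 0 reads in every library. Beyond Ifnb1 the largest total over all libraries was 16 reads, for Ifnz, and the type III receptor gene Ifnlr1 had 0 reads throughout.

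Stat3, which serves IL-6-type cytokines, was higher than parental with vehicle (213 against 85.7 CPM, 1.31) and TGF-β1 (231 CPM, 1.43). Of 10 tested genes for other receptors, JAKs and STATs, 5 were higher and 1 lower than parental in the empty vector line (28.9% and 29% of all genes) and 2 higher and 6 lower in M12 (24.9% and 25.2%). Over the 6 groups 1 to 5 were higher and 1 to 6 lower.

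Among the other IRF genes, Irf8, a factor of myeloid and lymphoid cells, stood at 47.3 CPM in M11 and 47.2 in M12, against 7.70 in the parental line and 1.57 with TGF-β1. Irf2 was 26.4 CPM in the parental line and 38.1 with vehicle, and Irf5 was at most 4.28 CPM in any group mean. Irf4 had at most 1 read in a library. Summed blood and immune cell markers lay between 22.8 and 74.6 CPM in the M12 libraries and between 4.31 and 18.2 CPM elsewhere, with Cd68 at 36.9 CPM in the M12 mean. The defining marker Ptprc had at most 4 reads in any library, 3 of the 10 markers were tested, and Cd3e, Klrb1c and Siglech had 0 reads. Summed endothelial markers were 3.54 to 3.99 CPM in M11 and at most 1.93 elsewhere. Summed fibroblast markers were 675 to 912 CPM in M11, 111 to 114 in the parental libraries and 135 to 456 in the others, led in M11 by Col3a1 (721 CPM against 37.2 in the parental line), while Dcn and Lum had at most 2 reads in a library. The part of such cells in the values of M11 and M12 was not tested.

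Sensors upstream of IRF3 and IRF7 were mixed. Of 22 tested genes for nucleic acid sensing and IRF kinases, 7 were higher and 7 lower than parental in the empty vector line, near the 28.9% and 29% of all genes. Over the 6 groups 2 to 7 were higher and 7 to 12 lower, the last in M12, where 24.9% of all genes were higher and 25.2% lower. The RNA sensor genes Ifih1 (MDA5) and Dhx58 (LGP2) were lower than parental in each of the 6 groups. Ifih1 read 38.7, 24.3 and 13.5 CPM in the parental libraries against a mean of 5.20 in the empty vector line, and Dhx58 40.8, 21.9 and 6.39 CPM against 3.05. Ddx58 (RIG-I) was lower in 4 of 6 groups and did not pass with vehicle (65.4 against 72.7 CPM) or TGF-β1, and Tlr3 was lower in 5 and did not pass in the empty vector line (1.68 against 1.23 CPM). Adaptor and kinase genes differed in range: Mavs averaged 43.5 CPM in parental libraries and 36.9 to 52.7 elsewhere and Tbk1 at 81.9 and 65.9 to 87.6 CPM, while the adaptor gene Ticam1 ran from 10.5 CPM in M12 to 33.0 with vehicle. The IRF kinase gene Ikbke ran from 5.28 CPM with TGF-β1 and 6.83 in the parental line to 21.9 in the empty vector line and 24.7 in M12, and was higher than parental in those last 2. Tmem173 (STING) was higher than parental in 5 of 6 groups, up to 111 CPM with vehicle against 51.7. Of 9 genes for nucleic acid clearance, 0 to 2 were higher and 3 to 6 lower than parental over the 6 groups. Of all genes, 20.8% (M11) to 30.6% (vehicle) were higher and 20% (M11) to 32.5% (TGF-β1) lower. Most clearance genes were lower in M12 (6, beside 25.2% of all genes).

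Of 14 tested negative regulators, 3 were higher and 4 lower than parental in the empty vector line, at or below the 28.9% and 29% of all genes. Over the 6 groups 2 to 3 were higher and 4 to 8 lower. With TGF-β1 3 were higher and 8 lower, beside 30.2% and 32.5% of all genes. M12 had the same counts, beside 24.9% and 25.2%. The widest range was that of Usp18, an interferon-induced protein that binds IFNAR2 and dampens signalling. It read 79.2, 39.1 and 7.98 CPM in the parental libraries and had means of 1.19 CPM in the empty vector line, 0.322 in the ZBTB18 line, 7.32 in M11 and 0.323 in M12. Socs1, by contrast, stayed between 3.41 and 7.99 CPM in all group means. Of 19 tested genes of the IRF1 and interferon-γ type, 8 were lower and 1 higher than parental in the empty vector line (29% and 28.9% of all genes), and 10 lower and 4 higher with vehicle (32.3% and 30.6%), the group with the highest Irf1. Over the 6 groups 4 to 11 were lower and 1 to 4 higher. In M12 11 were lower and 1 higher, beside 25.2% and 24.9% of all genes.

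Overexpression of ZBTB18 against the empty vector changed 1 of the 9 genes, beside 28.4% of all tested genes. Irf3 fell by 0.42 (SE 0.13, adjusted p = 0.0192), from 42.9, 47.5 and 53.4 CPM to 38.8, 35.1 and 33.8 CPM, with no overlap. The call was lost without empty vector replicate 3 (-0.33, adjusted p = 0.102), ZBTB18 replicate 2 (-0.40, adjusted p = 0.0634) or ZBTB18 replicate 3 (-0.37, adjusted p = 0.0766). Irf1 lay at -0.82 without overlap but did not pass (adjusted p = 0.112); in a fit of the 6 libraries alone it did (adjusted p = 0.00149). Stat2 was at -0.01 (SE 0.29). Ifnar1 (0.18, adjusted p = 0.0697) passed without ZBTB18 replicate 1 (0.24, adjusted p = 0.0266). Of the 40 interferon-stimulated genes, 8 were lower (14.5% of all genes) and 0 higher (14%).

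The vehicle group against the ZBTB18 line, a contrast that holds both the receptor transgene and doxycycline, changed 5 of the 9 genes, beside 38.8% of all genes. Irf7 was higher by 2.45 (SE 0.74, adjusted p = 0.0171), Irf1 by 1.74 (adjusted p = 0.00161), Irf9 by 1.42 (adjusted p = 0.00313) and Stat2 by 1.31 (adjusted p = 0.00175), none with overlapping libraries. Ifnar2 fell by 0.33 (adjusted p = 0.00818), from 23.2, 23.6 and 25.4 CPM to 17.7, 19.4 and 20.6 CPM. The Irf7 call was lost without ZBTB18 replicate 1 (2.36, adjusted p = 0.0581), ZBTB18 replicate 3 (2.38, adjusted p = 0.0581) or vehicle replicate 2 (2.16, adjusted p = 0.0571), and in limma-voom (2.41, adjusted p = 0.101). The Ifnar2 call was lost without vehicle replicate 1 (-0.27, adjusted p = 0.0513) or with no filter (-0.30, adjusted p = 0.0634). Of the 40 interferon-stimulated genes, 25 were higher and 1 lower, where 19.5% of all genes were higher. Transgene and doxycycline cannot be told apart here.

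TGF-β1 against vehicle changed 0 of the 9 genes in edgeR's quasi-likelihood test, beside 1.91% of all genes; 0 had an unadjusted p under 0.05, and DESeq2 and limma-voom called 0 as well. The largest difference was that of Irf1, -0.32 (SE 0.36, adjusted p = 0.824), and those of the receptor and kinase genes lay between -0.14 and 0.09. Of the 40 interferon-stimulated genes, 0 passed in either direction.

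M11 against M12 changed 3 of the 9 genes, beside 35.5% of all genes, and all 3 were higher in M11. Irf9 was higher by 2.06 (SE 0.35, adjusted p = 0.000224), Irf7 by 2.40 (adjusted p = 0.0244) and Irf3 by 0.61 (adjusted p = 0.000896), with no overlap between the lines. Stat2 lay at 0.29 (adjusted p = 0.476), so that the IRF subunit of ISGF3 changed and the test did not call its STAT2 subunit. The difference between those genes' responses was not tested. The Irf7 call was lost without M11 replicate 2 (1.99, adjusted p = 0.094), M12 replicate 1 (2.29, adjusted p = 0.075) or M12 replicate 3 (2.00, adjusted p = 0.087). In limma-voom it was lost with all libraries (2.46, adjusted p = 0.164). Irf1 lay at -0.42 (adjusted p = 0.411); with the 6 libraries alone and the replicate number as a block it passed at -0.35 (adjusted p = 0.0484). Of the 40 interferon-stimulated genes, 25 were higher and 1 lower in M11, where 17.7% of all genes were higher.

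The genes with the most similar levels were named by Pearson r of log2 CPM over 21 libraries among 9604 candidates, as a description; the points share lines, parental libraries and depth. Irf7 was most like Oasl2 and Rtp4 (0.97 each), and Irf9 most like Helz2 and Dhx58 (0.97 each). Stat2 was most like Tmem50a (0.93) and Hsd17b10 (0.91), and Irf1 most like Nfkbie (0.93) and Icam1 (0.92). Irf3 was most like Rad52 and Mrgbp (0.93 each). Ifnar1 was most like Kif3b (0.93), Jak1 like Myh9 (0.94), Tyk2 like Unc13d (0.91) and Ifnar2 like Tmem175 (0.85), the lowest of the 9.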

How the data were processed

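PolyA-enriched RNA of 21 libraries was sequenced with a stranded kit, per the labels. The authors deposited expected counts per gene and TPM, both made by RSEM; STAR 2.7.1a, GATK 4.1.2.0, Trim Galore and build mm10 are named in the submitters' processing notes, and the annotation release and strand setting are not given in the sources used here. Deposited FPKM were not used. Expected counts were rounded (1.28% of values were not whole), and 92 spike-in rows with 0 reads were left out. Positions came from GENCODE vM21, in which all 9 gene identifiers were found, and promoters from RefSeq.

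The tests ran in edgeR 4.0.16 (R 4.3.3). After TMM scaling and filterByExpr, a robust quasi-likelihood F-test was made with 1 mean per group over 21 libraries (14 residual degrees of freedom), two-sided, Benjamini-Hochberg adjusted over all 15432 genes at 0.05. SE is the log2 fold change divided by the square root of F, in absolute value. Log2 CPM used a prior count of 2. The code was tested on simulated data. There were 10 comparisons. Alternatives were DESeq2 1.42.0, its size factors, limma-voom (limma 3.58.1), other filters, 6 libraries alone, TPM with a pseudocount of 1 or 0.1 (log2, tested in limma), a replicate block, no Gm42418, and leaving out each library.

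Same-numbered libraries deviated together in TGF-β1 and vehicle (r of 0.30, 0.14 and 0.35) and in M11 and M12 (0.17, 0.29 and 0.17). For those 2 comparisons an added alternative therefore took the numbers as pairs, from the data and not from the labels. It fitted the 6 libraries alone with a replicate block. The main values of both comparisons come from the fit without pairs. Named genes were the 9 members, genes of the pathway lists by level, and the 2 most similar genes each. The members and lists were chosen with earlier results of these data known. No molecular identifiers were used, and counts carry sampling error beside the spread of libraries.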

Additional observations from a re-analysis of the deposited data

How the results depend on the processing

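Of 90 member differences, 48 passed the threshold. DESeq2 size factors, the shared replicate block and leaving out Gm42418 each kept the call of all 90. Over 1512 alternative values, 52 changed sign without passing in either fit and 8 called values reversed, all without parental replicates 1 and 2, a setting added after seeing the data: relative to parental, Stat2 became 0.43, Irf9 0.21 and Irf7 0.49 with vehicle, 0.30, 0.24 and 0.48 with TGF-β1, and Irf9 0.25 and Irf7 0.44 in M11, none past the threshold; the cause was not tested beyond that it leaves 1 parental library. In that setting the members called were 3 for the empty vector (7 in all libraries), 2 for vehicle (7), 2 for TGF-β1 (7) and 0 for M11 (4), and genes called were 4485 for the empty vector (8944), 6093 for ZBTB18 (9525) and 3747 for M11 (6288).

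With the 6 libraries of a comparison alone there were fewer degrees of freedom. Members called against parental were then 4 for vehicle (7 in the main fit), 4 for TGF-β1 (7) and 1 for M11 (4). ZBTB18 against empty vector had 4 (1). Genes called were 4015 for M11 (6288) and 5113 for M12 (7737) against parental. They were 1349 for TGF-β1 against vehicle (295) and 3497 for M11 against M12 (5474). For the vehicle, TGF-β1 and ZBTB18 counts the share of all genes in this fit is not given here, so they are not read as particular to the members. For ZBTB18 against empty vector DESeq2 called 2 members and no filter 4, and for M11 against parental limma-voom called 2. Genes called for TGF-β1 against vehicle were 594 by DESeq2, 633 with no filter, 112 on log2(TPM + 1) and 81 on log2(TPM + 0.1). Leaving out 1 library at a time, members called against parental ranged from 4 to 8 for vehicle and for TGF-β1 and from 2 to 6 for M11. Beside them, genes called ranged from 8686 to 9886 for vehicle, 8637 to 9881 for TGF-β1 and 5067 to 6947 for M11. For ZBTB18 against empty vector 0 to 2 members and 3328 to 3764 genes were called. Genes called for TGF-β1 against vehicle ranged from 71 to 183. For TGF-β1 against vehicle the replicate block with its 6 libraries alone gave 3623 genes and 0 members; it changed no other member call than that of Irf1 between M11 and M12. In the other comparisons same-numbered libraries did not all deviate together, so the number is only a name there. Depth limits Irf7 in M12 and all ligand genes. Causes of these changes were not tested.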
